A study of Mus musculus with 884 samples.

Results

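Early S cells are cells sorted from S phase in which only the first part of the genome has been copied. Here they are the 79 of 884 single cells of the series that came from day 7 (d7, 31 cells) or day 0 (d0, 48 cells), were not sorted as G1, and had a replication score of 10% to below 40%. The replication score is the percentage of a cell's called autosomal bins that were replicated. The cells were chosen by label and score alone, so no difference between the days was used to choose them.

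The d7 cells were CBMS1 female embryonic stem cells, of strain CBA/MsM, after 2 days as epiblast-like cells (EpiLCs) and 5 further days as floating aggregates (EBs), a route to neurectoderm per the labels' protocols. The d0 cells were the same line in 2i/LIF medium, before differentiation. Both days therefore rest on 1 cell line. Early S cells of d2 (32 cells), d3 (10), d4 (10), d5 (14) and d6 (18) of the same differentiation, and of female epiblast stem cells in Activin/FGF medium (EpiSCs, 15 cells), served to choose bins and to show the course between the days. Expression was not measured, so the cell type could not be checked against marker genes.

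DNA is copied in a set order in each cell type. Early domains are copied from clusters of origins that fire at the start of S phase, and are rich in genes and open chromatin; late domains are mostly gene-poor and lie near the nuclear lamina. When embryonic stem cells differentiate, part of this order changes block by block, at the scale of replication domains. Single-cell Repli-seq reads the order from the DNA of 1 cell: a copied bin gives more reads than an uncopied one. A cell early in S phase has only its first domains copied, so such cells resolve the order within early-replicating DNA, where cells further on have everything copied.

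The calls cover 30890 autosomal bins of 80 kb on chromosomes 1 to 19 (mm9 build), and 29117 to 29786 bins were called in the d7 cells against 29305 to 29728 in the matched d0 cells. Cells of d7 were paired 1 to 1 with cells of d0 within 2 points of score, which gave 28 pairs with a mean gap of 0.666 points and left out 3 d7 and 20 d0 cells. The mean score was 27.9% ± 8.39 (SD, 28 d7 cells) and 27.7% ± 7.98 (SD, 28 d0 cells). No label named separate cultures, so each day counts as 1 sample, no test was run, and an SD over cells describes cells of 1 sample. Intervals are exact Clopper-Pearson 95% intervals over cells and cover counting error only.

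Some features of the cells moved with the day. The authors had normalised each cell against 1 of several merged G1 controls, and the d7 and d0 cells had 3 controls each, with none shared. Control and day cannot be told apart. Of the d7 cells, 4 had been deposited in a previous series, against 41 of the d0 cells, and 17 d7 cells came from the gate labelled 25perS, against all 48 d0 cells. The authors' filter columns marked 7 of the 31 d7 cells and none of the d0 cells. Some results below are also given without the marked cells.

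The replicated part of the genome differed between the days in both directions. A bin was called earlier or later at d7 when its share of replicated cells differed by 0.3 or more (30 points). Of 29678 bins, 1690 (5.69%, 135.2 Mb) were earlier at d7, with a mean share of 58.96% of d7 cells and 15.9% of d0 cells. Later at d7 were 1759 bins (5.93%, 140.7 Mb), with 26.2% of d7 cells and 71.8% of d0 cells. Because the scores were matched, differences in share have to nearly cancel over the genome. This does not fix the numbers of bins past the rule in each direction. Without the marked cells, on 23 pairs, 2604 bins were earlier and 2377 later.

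**Figure D1:**
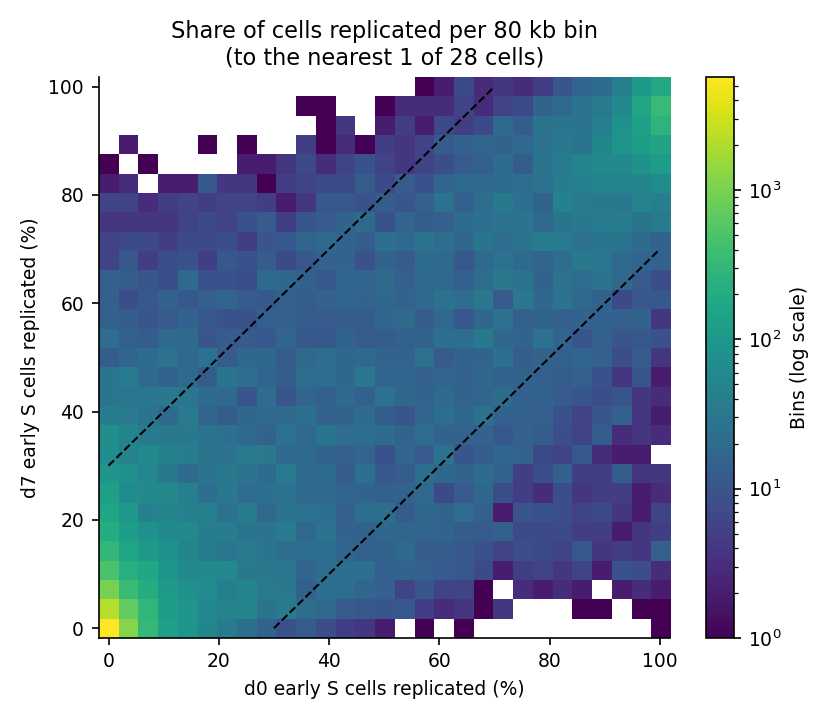
Share of early S cells in which each 80 kb bin was replicated, d7 on the vertical and d0 on the horizontal axis (%), 28 cells a day. Colour gives the number of bins on a log scale, and dashed lines mark a difference of 30 points: 1690 bins lie above the upper line and 1759 below the lower one, and most bins sit in the corner where few cells of either day were replicated.

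The shares at both days correlated at r = 0.845 across bins, which is a description over bins that are not independent. Under 10% of d0 cells had replicated 15615 of the bins, so the d0 cells give little order among these. Bins replicated in no cell numbered 7680 (25.9%) at d7 and 10627 (35.8%) at d0, and 5749 were in both groups. At the other end, 406 bins were replicated in every called d7 cell and 1345 in every called d0 cell. The d7 cells were thus less uniform at both ends of the order. Pairs of cells within 5 points of score showed the same. A median of 82.04% of bins was called alike between 2 d7 cells, 86.2% between 2 d0 cells and 79.8% between a d7 and a d0 cell. In pairs with different G1 controls, as all pairs between the days are, it was 81.2% within d7 and 86.1% within d0. The counts and the pairs include the 6 marked cells among the 28 d7 cells, and neither is given without them.

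By class of d0 share, gains at d7 were most frequent among bins replicated in 10 to 30% of d0 cells, and losses among those at 50 to 80%. Earlier at d7 were 4.82% of the 15615 bins replicated in under 10% of d0 cells, 15.6% of the 3947 bins at 10 to 30%, 11.8% of the 2078 bins at 30 to 50% and 2.13% of the 3622 bins at 50 to 80%. Later at d7 were 11.1% of the bins at 30 to 50%, 23.8% of those at 50 to 80% and 15.1% of the 4416 bins at 80% or more. A rule of 30 points leaves no room for a gain above 70% or a loss below 30%, so the lack of gains at 80% or more and of losses under 30% follows from the rule. The d0 share that sets the classes is also a term of the difference. A d0 share that is low by sampling thus favours a gain, and a high one a loss. The rates by class are a description and are partly shaped by this choice.

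A size rule on 28 cells a day also passes bins between cells of 1 day, and this was measured with the G1 controls. Matched cells of the first and second d7 controls (9 pairs) differed by 30 points or more at 1696 and 1830 bins. Cells of different d0 controls (11 to 14 pairs) differed so at 697 to 1260 bins in each direction. Between the days, cells of 1 control each (7 to 11 pairs) differed at 1706 to 3129 bins in the direction of earlier at d7 and 2139 to 3170 in the other. Every count between the days lay above every count within d0. The lowest count between the days, 1706, lay between the 1696 and 1830 found within d7, so these counts overlapped. The smallest difference that passes the rule depends on the number of pairs, so counts on unlike numbers are not fully comparable. Between the days, counts were 1706 to 2302 on 11 pairs and 2946 to 3170 on 10. Within d0, the comparison with 11 pairs gave 712 and 717.

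To measure the bins in cells that had not chosen them, bins were called on 11 pairs (first d7 and first d0 control) and measured on 13 pairs with other controls. The 1706 bins earlier at d7 in the first cells had 50.1% of d7 cells and 20.5% of d0 cells replicated in the second, and 1371 of them (80.4%) kept their direction. The 2089 later bins had 39.8% and 68.8%, and 1644 (78.7%) kept theirs. The other way round, 2907 earlier bins had 45.5% of d7 and 24.9% of d0 cells replicated, with 2208 (75.95%) in the same direction. Of 2722 later bins, with 33.4% and 58.3%, 2094 (76.9%) kept their direction. Past the rule in the same direction in the second cells were 52.7% of the earlier and 50.5% of the later bins. The other way round these were 30.9% and 38.8%. The rate of a kept sign over all bins, changed or not, is not given here, so the rates have no background beside them. They cover called bins of any class, and those of the earliest bins are given with that class.

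The differences held along early S in most cells but not in all. The share of the bins earlier at d7 that was replicated in a cell had a lowest, median and highest value of 20.6, 58.9 and 87.5% at d7 against 1.36, 14.6 and 39.7% at d0. For the bins later at d7 these were 2.05, 24.5 and 71.8% at d7 against 32.6, 81.4 and 93.4% at d0. The ranges overlapped: 7 of 28 d7 cells lay at or below the highest d0 cell in the first measure. In 24 of 28 d7 cells, and in none of 28 d0 cells, the first share was above the second. These shares describe the bins in the cells that chose them.

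**Figure D2:**
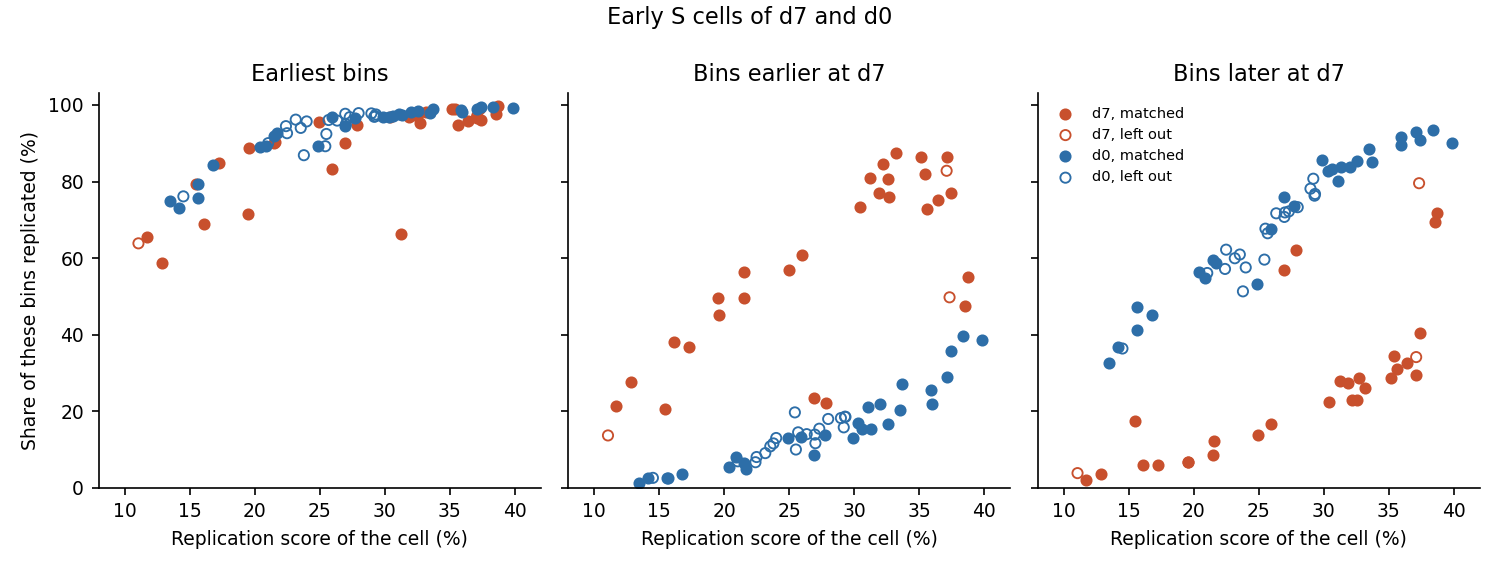
Share of the earliest bins, of the 1690 bins earlier at d7 and of the 1759 bins later at d7 that was replicated in each early S cell (vertical, %), against the cell's replication score (horizontal, %). Filled points are the 28 matched cells of each day and open points those left out; at a given score most d7 cells lie above the d0 cells in the middle panel and below them in the right panel, and a few d7 cells lie with the d0 cells.

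Of the 6 matched d7 cells that an authors' filter marked, 2 had the first share above the second. The 7 marked d7 cells averaged 35.3% ± 14.9 (SD) of the bins earlier at d7 and 49.3% ± 32.6 of the bins later at d7, while the 24 unmarked ones averaged 64.6% ± 21.6 and 21.1% ± 10.96. By the other measure, 3 of the 7 matched d7 cells at or below the highest d0 share of the bins earlier at d7 were unmarked. Cells left out of the pairing had chosen no bins. The 3 d7 cells had 48.8% of the bins earlier at d7 and the 20 d0 cells 12.9%. For the bins later at d7 the values were 39.2% and 65.4%. Their scores were unlike, at 11.1, 37.1 and 37.3% in the d7 cells against 14.5 to 29.3% in the d0 cells. These means therefore mix score with day. The 3 d7 cells were far apart, with 3.84, 34.2 and 79.6% of the bins later at d7. The highest was a marked cell, above the mean of the d0 cells left out. Their shares of the bins earlier at d7 were 13.7, 49.8 and 82.8%.

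The earliest-replicating bins were defined without d7 and d0. They are the 10% of bins with the highest mean share over the early S cells of d2, d3, d4, d5, d6 and EpiSC, each group weighted equally: 2958 of 29579 bins, in 410 runs with a median length of 400 kb. The last bin inside had a mean share of 77.3148% and the first outside 77.3127%. They were spread unevenly, covering 28.8% of chromosome 11 and 1.99% of chromosome 13.

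At these scores most of the earliest class was replicated at both days. In it, 2290 bins (77.4%) were replicated in at least 80% of the cells of both days. The median share was 92.3% at d7 and 96.4% at d0, and the median difference per bin was -3.57 points, against 0 over all bins. Of the earliest bins, 47 (1.59%) were earlier at d7 and 56 (1.89%) later, below the 5.69% and 5.93% over all bins; for bins this close to 100% at d0, little room is left for a gain of 30 points. Without the marked cells these counts were 57 and 88. The counts differed between score windows. At 10 to below 25% (10 pairs), 273 earliest bins (9.23%) were earlier and 471 (15.9%) later, against 7.52% and 8.19% of all bins. In the 18 pairs at 25 to below 40% they were 18 (0.609%) and 24 (0.811%), against 7.59% and 7.01% of all bins. The earliest bins were thus below the share of all bins in the higher window and above it in the lower one. The windows differ in number of pairs, so the smallest difference that passes the rule differs too. In the higher window the earliest bins averaged 94.02% at d7 and 97.86% at d0, which leaves little room for a gain. In the lower window they averaged 79.4% and 83.96%, and their median difference was 0 points. The reversal is therefore not shown to be a trait of the class. At least 80% of cells had copied 2465 earliest bins at d7 and 2675 at d0. The number replicated in every called cell was 383 at d7 and 1166 at d0.

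The slightly lower share at d7 differed by G1 control. Cells of the first d7 control had 84.8 to 85.9% of the earliest bins replicated, against 92.4 to 94.8% in their d0 partners. Cells of the second d7 control had 90.9 to 95.01%, against 90.6 to 94.98% in theirs. Within d7, matched cells of the first control had 84.8% and those of the second 94.6%, with 302 earliest bins at least 30 points lower in the first. A difference between controls of 1 day was thus as large as the one between days. The 4 d7 cells of the previous series all had the first control. In 4 matched pairs within d7, cells of the present series had 95.5% of the earliest bins replicated and those of the previous series 88.4%. Control and deposit thus overlap, and the cause was not tested. The median difference was 0 without the first d7 control and -5.88 points without the second. Of the earliest bins, 2.57% were earlier and 2.70% later at d7 without the first, and 0.609% and 3.58% without the second. Measured across controls as above, the earliest bins that were later at d7 in the cells of the first controls had 86.7% of d7 and 93.9% of d0 cells replicated in the other cells, where 48.6% of them kept their direction and 11.9% passed the rule. The 39 earlier ones had 90.5% and 64.3%, and 32 (82.1%) kept theirs. Chosen on the other cells, the earlier ones had 78.8% of d7 and 66.99% of d0 cells replicated in the cells of the first controls, with 63.7% in the same direction and 17.6% past the rule. The 84 later ones had 68.3% and 93.4%, with 72 (85.7%) in the same direction and 30.95% past the rule.

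Within early S, the order of filling showed in score windows. At scores of 10 to 20%, the earliest bins were 72.7% ± 10.6 replicated in 8 d7 cells and 77.3% ± 4.02 in 6 d0 cells (SD over cells). At 20 to 30% they were 90.7% ± 4.41 in 6 d7 cells and 94.2% ± 3.28 in 28 d0 cells, and at 30 to 40% 95.5% ± 7.65 in 17 d7 cells and 98.3% ± 0.86 in 14 d0 cells. Thus most of the class was copied before 20% of the genome was. The earliest bins past the size rule were chosen for their difference in these cells, and their values are a description. At scores of 10 to 20% the 47 bins earlier at d7 were 73.9% replicated in d7 and 15.96% in d0 cells, and the 56 bins later at d7 were 21.5% and 84.3%. At d7, the earlier ones were thus close to the 72.7% of the whole class.

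Ranking the bins within each day gave a similar picture. The top 10% by share held 2968 bins at each day, and 2094 (70.6% of each list) were in both. The 874 bins in the d7 list alone had a median share of 89.3% at d7 and 78.6% at d0. Those in the d0 list alone had 71.4% at d7 and 96.4% at d0. Past the size rule were 14.4% of the bins in the d7 list alone and 37.3% of those in the d0 list alone, so most of the exchange was of bins less than 30 points apart.

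Gains and losses lay largely in runs of adjacent bins. Calls within a cell already come in stretches, with a median of 560 kb at both days. Run lengths of differences within a day are not given here, so the runs are not shown to be particular to the change between days. Regions were runs of at least 5 adjacent bins (400 kb) past the size rule. They held 1127 of the bins earlier at d7, with a median length of 560 kb and a longest of 1760 kb, and 1046 of the bins later at d7, with a median of 480 kb and a longest of 3040 kb. A bin replicated in at least 50% of d0 cells lay within 2 bins of 72 of these gains (51.1%). For the losses, a bin replicated in at least 50% of d7 cells lay within 2 bins of 54 (38.8%). Of all 29678 bins, 8038 were replicated in at least 50% of d0 cells and 7731 in at least 50% of d7 cells. Several flanking bins hold such a bin more often than 1 bin does. The rate beside regions placed elsewhere is not given here, so these rates do not show a preference for such borders. An earliest bin was in 7 of the gains (4.96%) and 12 of the losses (8.63%), and 2.78% of all bins earlier at d7 and 3.18% of those later were earliest bins, where the rule makes 10% of bins earliest. No annotation of mm9 was used here, so regions are given by position and no gene is named. A cell was taken to have replicated a region if over 50% of the bins called there were replicated. The regions were chosen on the same cells, and their values are a description.

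The largest gain lay on chromosome 8 from 10320001 to 11360000. It was replicated in 23 of 28 d7 cells (82.1%, 63.1 to 93.9%) and in 0 of 28 d0 cells (up to 12.3%). The region directly follows an early domain to its right, where the flanking bins had 85.7% of d7 and 71.4% of d0 cells replicated, while the left flank had 28.6% and 0%. Over d0, d2, d3, d4, d5, d6 and d7 its mean share was 6.32, 21.4, 13.1, 31.5, 40.7, 47.9 and 73.6%. The EpiSCs had 53.3%.

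The other 7 gains were replicated in 17 to 22 of 28 d7 cells, against 0 to 2 of 28 d0 cells. They lay on chromosome 3 (97520001 to 98160000 and 51440001 to 52320000), chromosome 6 (127120001 to 128000000), chromosome 11 (112560001 to 113360000), chromosome 13 (108080001 to 108880000), chromosome 5 (101200001 to 102160000) and chromosome 8 (94000001 to 95440000). Their courses differed. The chromosome 3 region at 51440001 already had a mean share of 49.1% at d2, against 7.14% at d0 and 65.9% at d7. The chromosome 5 region had 9.17, 21.4, 42.1 and 65.2% over d4, d5, d6 and d7, with 13.3% in EpiSCs. None of the 20 d0 cells left out of the pairing had any of the 8 gains replicated. Each gain was replicated in 1 to 3 of the 3 d7 cells left out. No score of these d7 cells lay within the range of these d0 cells, so the counts mix score with day.

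**Figure D3:**
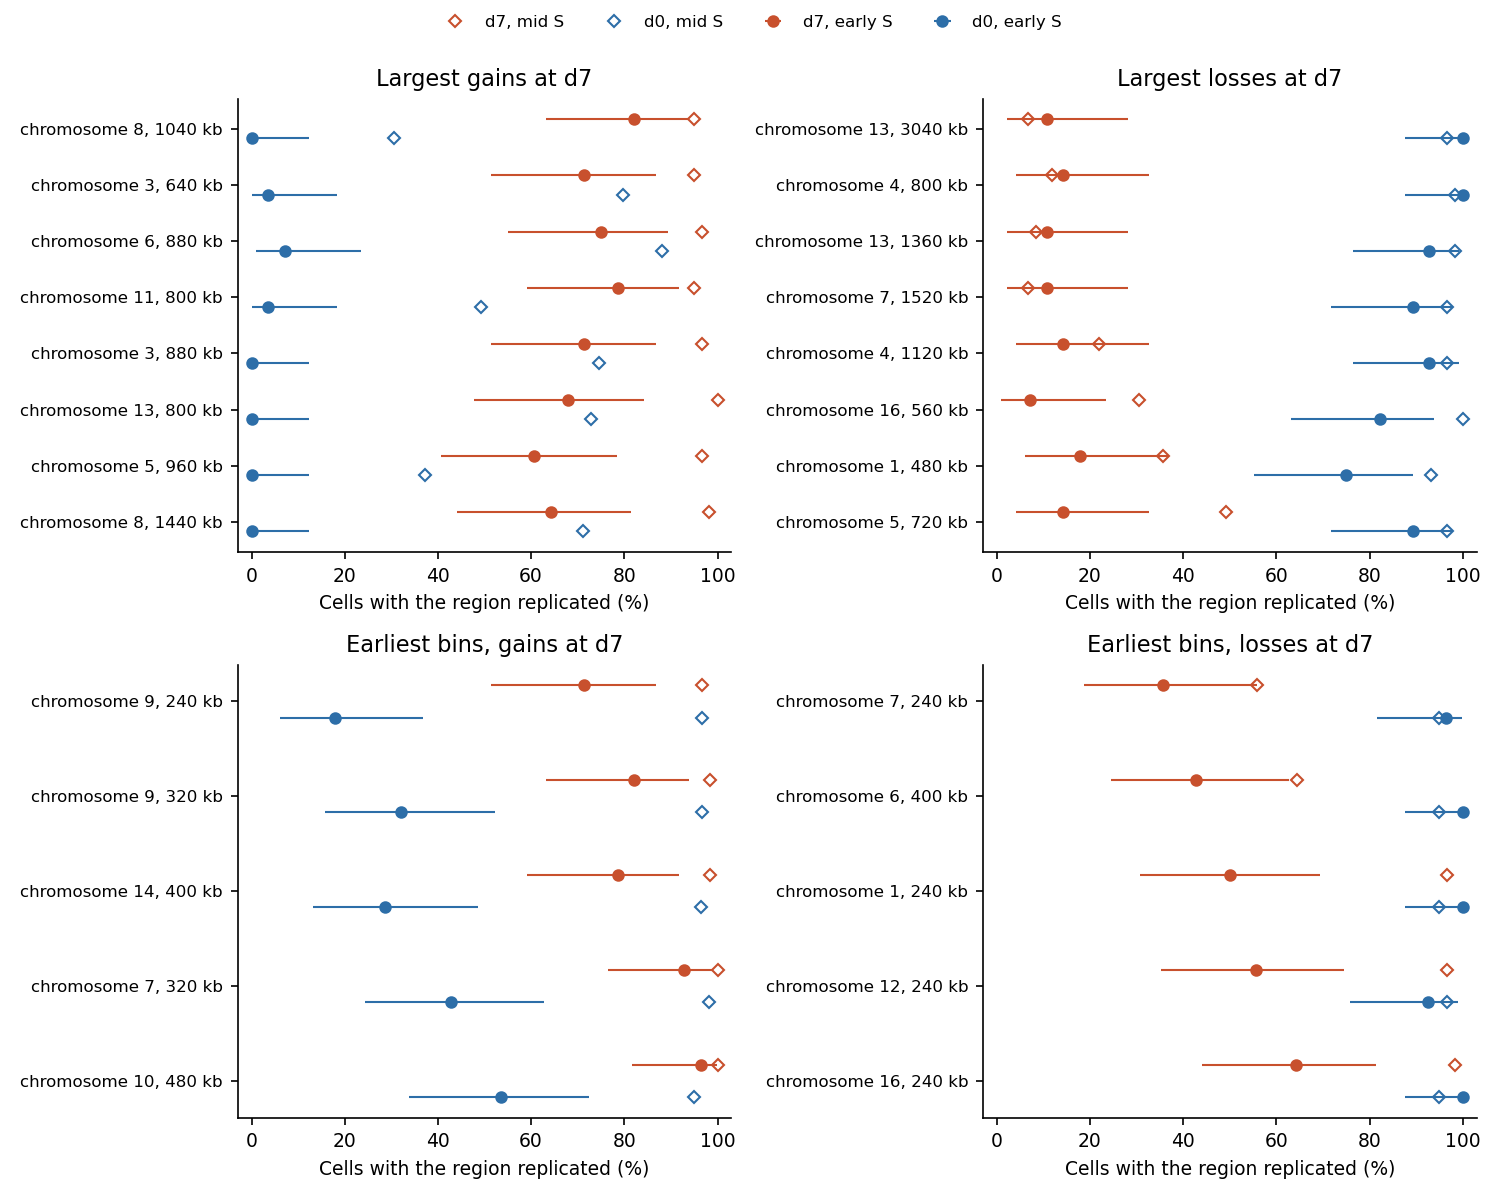
Percentage of cells with each named region replicated, d7 above d0 in each row, for the 8 largest gains and losses and the 5 largest of each among runs of earliest bins. Filled points with bars are early S cells with exact 95% intervals, and open diamonds are mid S cells. Early S intervals of d7 and d0 do not overlap for the 8 gains and 8 losses. These regions were chosen for their difference in the same early S cells, so the gap between the intervals is a description. In mid S the diamonds of the earliest gains lie near the right edge at both days.

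The largest loss covered 3040 kb of chromosome 13, from 65120001 to 68160000. It was replicated in 3 of 28 d7 cells (10.7%, 2.27 to 28.2%) and in all 28 d0 cells (87.7% or more). Over d0, d2, d3 and d4 its mean share was 90.7, 59.8, 93.8 and 20%, and on the later days it lay between 8.33 and 10.9%. The EpiSCs had 4.04%. In the profile, the d0 share drops from near 100% to near 0 over a short distance at both ends, and the whole block is low at d7.

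Further losses lay on chromosome 4 (146480001 to 147280000 and 144400001 to 145520000), chromosome 13 (61600001 to 62960000), chromosome 7 (49520001 to 51040000), chromosome 16 (84480001 to 85040000), chromosome 1 (84480001 to 84960000) and chromosome 5 (109840001 to 110560000). These 7 were replicated in 2 to 5 of 28 d7 cells, against 21 to 28 of 28 d0 cells. The chromosome 16 region had left the early class by d2, at a mean share of 10.3%, against 72.4% at d0 and 6.63% at d7. The chromosome 1 region went down later, with 66.1, 38.3, 16.7 and 0% over d2, d4, d5 and d6, and had 55.6% in EpiSCs.

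**Figure D4:**
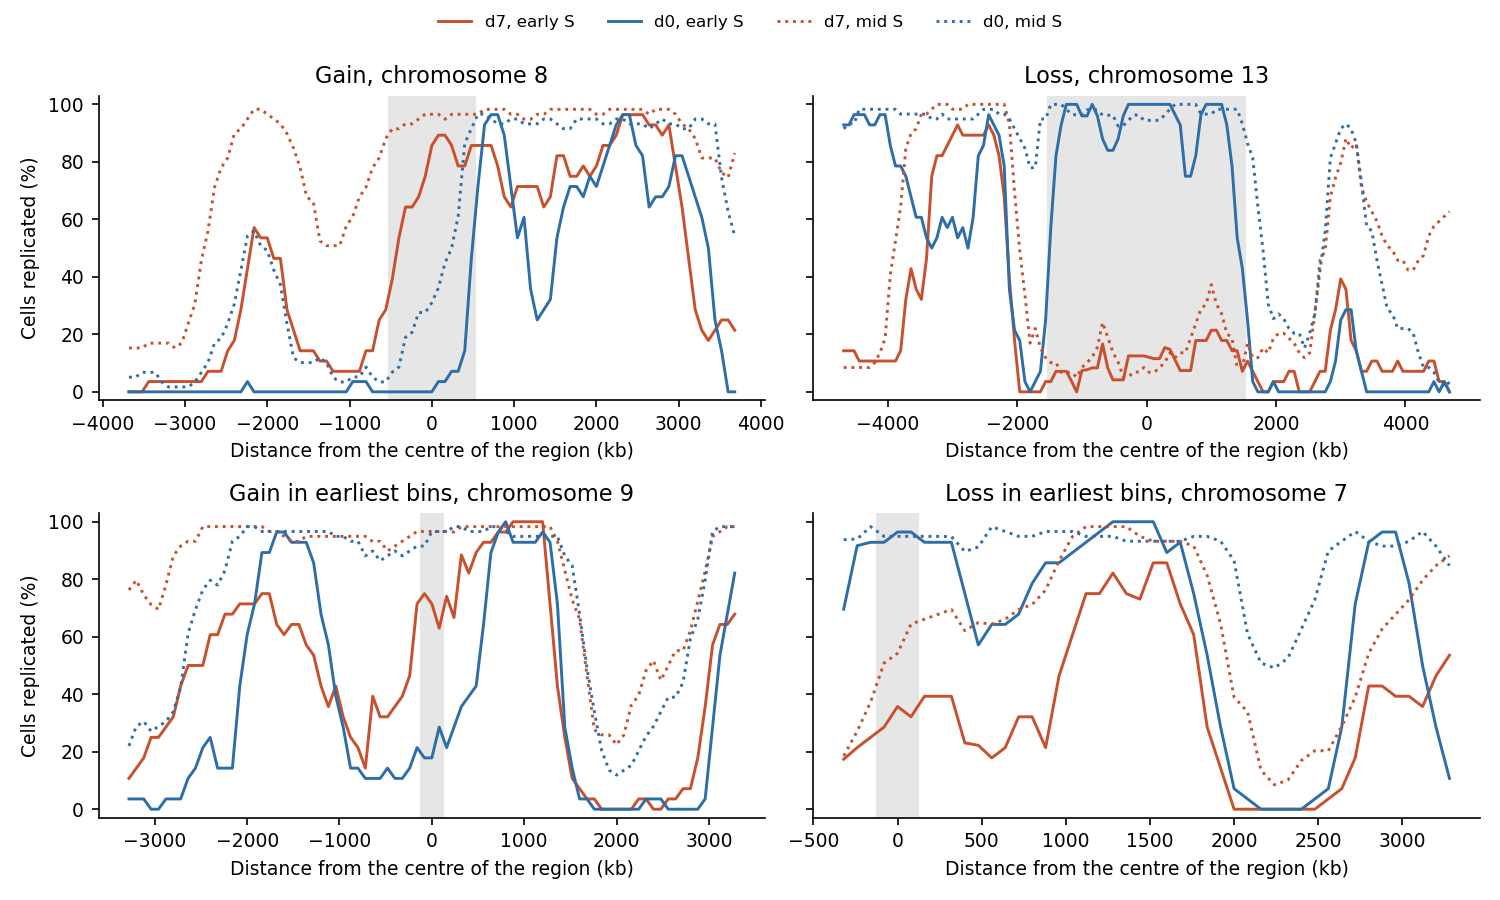
Share of cells replicated per 80 kb bin (vertical, %) by distance from the centre of a region (horizontal, kb), for the largest gain, the largest loss, and the largest of each within earliest bins; grey marks the region. Solid lines are early S cells (28 a day) and dotted lines mid S cells (59 a day); the largest loss is low at d7 in both windows, while the gain in earliest bins on chromosome 9 has a mean share of 69.8% at d7 and 21.4% at d0 in early S, and 96.6% and 94.9% in mid S.

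Among the earliest bins, gains at d7 formed 5 runs of at least 3 bins (240 kb) and losses 6. A pair of gains lay next to each other on chromosome 9. The first, from 71600001 to 71840000, was replicated in 20 of 28 d7 cells (71.4%, 51.3 to 86.8%) and 5 of 28 d0 cells (17.9%, 6.06 to 36.9%). The second, from 71920001 to 72240000, was replicated in 23 d7 and 9 d0 cells. In the 4 pairs of the previous series the difference was 0 points for each. Over pairs of G1 controls it was 12.5 to 70 points for the first and 28.6 to 72.7 for the second, which differed by 17.6 points without the second d7 control. Together they lie between 2 early peaks of the d0 profile, in a stretch that d0 cells copied after its neighbours.

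The other gains were on chromosome 14 (70400001 to 70800000; 22 d7 and 8 d0 cells of 28), chromosome 7 (106560001 to 106880000; 26 and 12) and chromosome 10 (76400001 to 76880000; 27 and 15). In the 5 runs the mean share at d2 was 67.2 to 80.5%, against 21.4 to 58.3% at d0. The d2 values took part in choosing the earliest bins, and the d2 cells had a lower mean score (24.5%) than the matched d0 cells (27.7%).

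The losses among the earliest bins were late in the course. On chromosome 7, from 3200001 to 3440000, 10 of 28 d7 cells (35.7%, 18.6 to 55.9%) and 27 of 28 d0 cells (96.4%, 81.7 to 99.9%) were replicated. Over d0, d2, d3, d4, d5, d6 and d7 its mean share was 95.2, 96.7, 100, 96.7, 77.5, 25.9 and 32.1%. The EpiSCs had 82.2%. On chromosome 6, from 122480001 to 122880000, 12 d7 cells and all 28 d0 cells were replicated, and the mean share was 85.6, 52.2 and 40% over d5, d6 and d7, with 93.3% in EpiSCs.

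The remaining named losses lay on chromosome 1 (138400001 to 138640000; 14 of 28 d7 and 28 of 28 d0 cells), chromosome 12 (4160001 to 4400000; 15 and 25 of 27) and chromosome 16 (13600001 to 13840000; 18 and 28 of 28). All 5 named losses had lower mean shares on d6 and d7 than on d5 or in EpiSCs. Earliest bins need a high mean share over d2 to d6 and EpiSCs, so a late drop is what this choice allows for a loss.

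The longest runs of earliest bins kept at 80% or more at both days lay on chromosome 5 (121600001 to 125120000), chromosome 17 (26880001 to 30080000), chromosome 4 (131440001 to 134560000), chromosome 11 (115040001 to 118160000) and chromosome 3 (87520001 to 90400000). They span 2880 to 3520 kb, and 27 or 28 of 28 cells of each day had them replicated. Their mean shares were 94.1 to 96.6% at d7 and 96.5 to 98.4% at d0. In all, 339 runs of such bins were found.

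**Figure D5:**
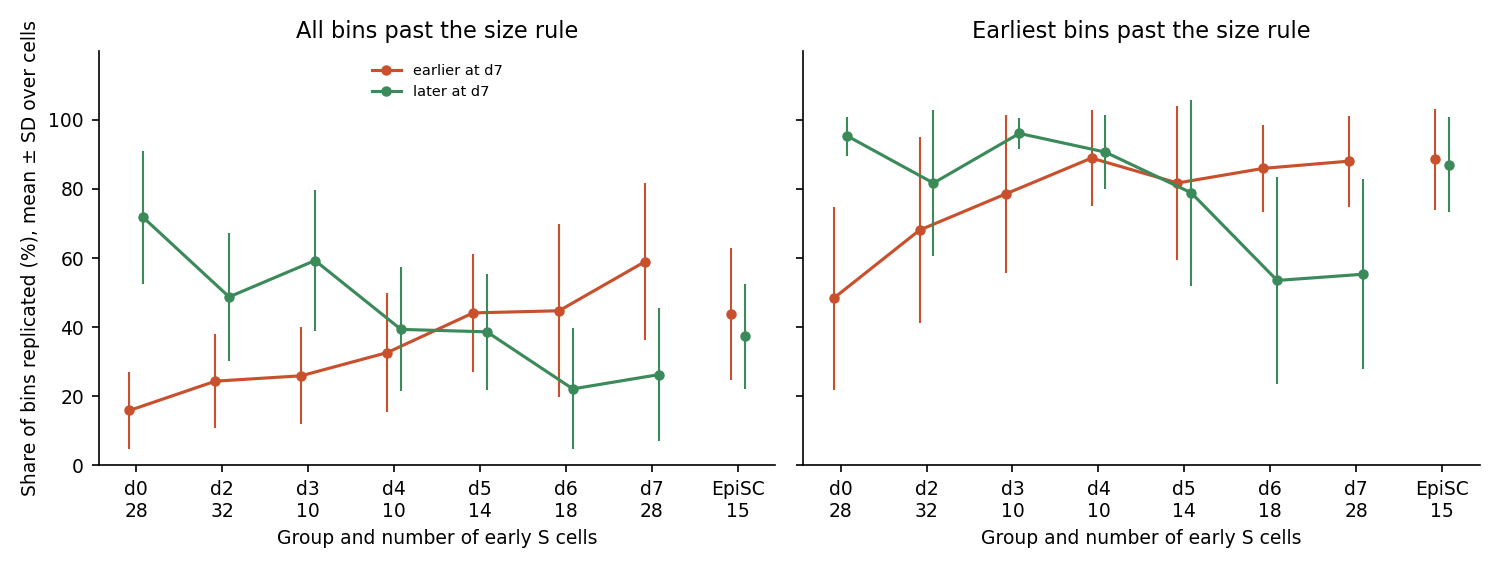
Mean share of bins replicated (vertical, %, bars show SD over cells) in early S cells of each group, for bins past the size rule (left) and for those among the earliest bins (right); numbers under the groups count cells. The bins earlier at d7 are at 58.96% at d7 and 15.9% at d0, and the bins later at d7 at 26.3% and 71.8%; among the earliest bins the later ones are at 78.9% at d5 and 53.5% at d6; d7 and d0 cells chose the bins.

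Over d0, d2, d3, d4, d5, d6 and d7, the mean share of the bins earlier at d7 was 15.9, 24.4, 25.9, 32.6, 44.1, 44.7 and 58.96%, and EpiSCs had 43.7%. For the bins later at d7 it was 71.8, 48.7, 59.3, 39.3, 38.6, 22.1 and 26.3% on the same days, and 37.3% in EpiSCs. The first share was above the second in 0 of 32 d2 cells, 0 of 10 d3 cells, 3 of 10 d4 cells, 13 of 14 d5 cells and 17 of 18 d6 cells, and in 12 of 15 EpiSCs. The order thus crossed between d4 and d5. The groups were not matched in score, and their mean scores were 23.5 to 28.8%. Some d2 and d5 cells had as few as 19.2% and 16.7% of the earliest bins replicated at scores above 10%.

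Mid S cells, with scores of 40 to 70%, are other cells of the same days and did not choose any of these bins. In 59 matched pairs, the bins earlier at d7 in early S were replicated in 93.2% of d7 and 74.1% of d0 cells, and 1567 of 1690 kept their direction. The bins later at d7 had 69.99% of d7 and 95.3% of d0 cells, and 1512 of 1757 kept theirs; in the 9 pairs of the present series the mean difference of the later bins was -12.5 points, against -25.3 in all pairs. By mid S a large part had been copied at both days. Replicated in at least 80% of mid S cells of both days were 895 of the gains (52.96%) and 832 of the losses (47.4%). Over all bins compared this was 10284 of 29673 (34.7%), and 15681 had the same sign in both windows. Still 30 points or more apart in the same direction were 423 gains (25.0%) and 613 losses (34.9%), where 7.66% and 8.09% of all bins were.

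Read the other way, 2273 bins were earlier and 2399 later at d7 in mid S among bins called in both windows. Of these, 423 (18.6%) and 613 (25.6%) were also past the rule in early S. Another 712 (31.3%) and 766 (31.9%) were replicated in at most 10% of early S cells of both days. Low shares in early S were common over all bins: 15615 of 29678 bins were replicated in under 10% of d0 cells, whatever their d7 share. The counts thus do not mark out a separate group. The shares also past the rule in early S lay above the 5.69% and 5.93% over all bins.

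The named regions fell into both kinds. The largest gain on chromosome 8 was still apart in mid S, replicated in 56 of 59 d7 cells and 18 of 59 d0 cells, and the largest loss on chromosome 13 in 4 of 59 and 57 of 59. The 5 gains among the earliest bins were replicated in 56 to 59 of 57 to 59 mid S cells of each day. The losses on chromosomes 7 and 6 remained, with 33 and 38 of 59 d7 cells and 56 of 59 d0 cells each. Those on chromosomes 1, 12 and 16 were replicated in 56 to 58 d7 cells and 56 d0 cells, of 58 or 59.

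Between pairs of G1 controls, the difference in cells replicated ranged from 50 to 100 points for the 8 gains and from -100 to -42.9 points for the 8 losses. For the gains among earliest bins it was 9.09 to 90 points, and for the losses among them -80 to -10 points. All 26 kept their sign in each of the 6 pairs of controls. The regions were chosen on cells that largely make up these pairs, so a kept sign is partly built in. The third d7 control (2 cells) was in none of the pairs. Without the marked cells the differences were 69.6 to 95.7 points for the 8 gains, -100 to -73.9 for the 8 losses, 43.5 to 56.5 for the gains among earliest bins and -69.6 to -34.4 for the losses among them. The controls shared cells between pairs, so these are not independent repeats.

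Chromosomes differed in their balance. On chromosome 17, 2.35% of bins were earlier and 9.85% later at d7, and the mean share was 30.4% at d7 and 35.6% at d0. Chromosome 13, which holds the largest loss, had 5.08% earlier and 9.88% later. Chromosome 2 leaned the other way, with 7.47% earlier, 3.99% later and mean shares of 33.7% at d7 and 29.9% at d0.

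The number of separate replicated stretches per cell had a median of 673.5 at d7 and 787.5 at d0 (SD 168.1 and 70.6 over 28 cells each), with a median stretch of 560 kb at both days. The spread over d7 cells was wider than the difference. On average, 36.1% of the replicated bins of a d7 cell and 33.9% of those of a d0 cell lay in stretches of at least 2 Mb.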

How the data were processed

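The deposited table holds 1 replication call per cell and 80 kb bin, a score of 1 where the bin was copied, -1 where it was not and 0 where nothing was called; per the file headers, the authors made these calls on mm9 after a mappability correction with a merged G1 control. The replication score of a cell is a deposited fraction, the share of replicated autosomal bins, and differed from the value recomputed from the calls by at most 5.00e-08 percentage points. The submitters' processing notes name cutadapt, BWA 0.7.10-r789 and Picard; their settings are not given in the sources used here. Depth in reads was not used here, and bins called per cell stand in for it.

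Groups came from the titles. Cells of d7 and d0 were paired 1 to 1 in score by optimal assignment within 2 points. The share of a bin counts the replicated cells of a day over all its cells with a nonzero call, and bins lacking such a call in more than 50% of a day's matched cells were dropped. Named were, per direction, the 8 regions and the 5 runs of at least 3 earliest bins whose mean difference was largest, and the 5 longest stable runs of earliest bins. The cells, bins, lists and rules were chosen with earlier results of these data known. Planned gene lists were not used here, since the only gene positions given are those of GRCm38.p6.

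The filter columns mark 7 early S d7 cells, with scores of 11.7 to 38.7%, in the column that the header describes as marking scores of at most 5% or at least 95%. The column described as marking outliers is set in 105 S-phase cells, which all have such extreme scores, so the headings may be exchanged; cells marked in any column were left out together as an alternative. Other alternatives varied the matching, score window, bin filter, size rule, gate, deposit and list size; leaving out each G1 control and measuring bins across controls were added after seeing the data. Python 3.11.15 ran scipy 1.17.1, pandas 2.3.3, numpy 2.4.6 and, for the plots, matplotlib 3.10.9.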

Additional observations from a re-analysis of the deposited data

How the results depend on the processing

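No paired analysis was possible because the numbers in the titles count cells within a gate and no result comes from a test. Bins earlier at d7 numbered 1422 to 2254 and bins later 1483 to 2427 over changes of matching, score window, bin filter, deposit, gate and G1 control; without cells marked by the authors' filters they were 2604 and 2377. With a size rule of 0.4 they were 777 and 918, and with 0.2 they were 3288 and 3174. The median difference over the earliest bins lay between -5.88 and 0 points, and was 0 in the previous series alone (4 pairs), in the present series alone (7 pairs), at scores of 10 to below 25% (10 pairs) and without the first d7 G1 control. The lists of the top 10% shared 66.4 to 73.04% over these settings, 55.3% as the top 5% and 75.8% as the top 20%. At scores of 10 to below 25%, 273 earliest bins were earlier and 471 later at d7, and at 25 to below 40% 18 and 24. Counting stretches of at least 2 bins gave a median of 616 per d7 cell and 712 per d0 cell. Over earliest bins alone, cells were called alike at 93.2% of bins within d7, 95.8% within d0 and 94.2% between the days. No named region changed direction, but these settings share cells with those that chose the regions. In the 4 pairs of the previous series both gains on chromosome 9 and the loss on chromosome 16 from 13600001 differed by 0 points. Without the second d7 control the second chromosome 9 gain differed by 17.6 points of cells. The cause of these shifts was not tested. Each day is 1 sample, so nothing here measures the spread between cultures, and with 28 cells a day 1 cell moves a share by 3.57 points.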

Other observations

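Below the score range compared, only 2 cells of either day had a score of 5 to below 10%, both from d7. They had 23.03% and 26.9% of the earliest bins replicated. In the same cells, 10.7% and 11.5% of the bins earlier at d7 and 4.20% and 4.48% of the bins later at d7 were replicated. With no d0 cell at such scores, no comparison was made.

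Gains and losses differed in where they lay along the chromosomes, counted from the lowest coordinate, which is the centromere end in the mouse. In the part nearest that end, 3.52% of bins were earlier and 7.40% later at d7. In the other three parts of equal length the values were 5.81 to 6.82% earlier and 5.39 to 5.56% later. The earliest bins covered 6.99% of the part nearest the centromere end and 15.4% of the part farthest from it.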
